A study of Homo sapiens with 148 samples.

Results

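The genes examined were the 37 genes of the human mitochondrial genome, taken as every gene name of the expression table that begins with MT-, of 49085 names in all. They comprised 13 mRNAs, 2 rRNAs and 22 tRNAs. Each had 1 entry in the table and 32 of the 37 were at 1 TPM or more in every stage. TPM corrects the reads of a gene for its length and gives every column an equal total, and on this basis levels are set side by side between genes. For the tRNAs, whose genes are little longer than a read, how far the correction holds was not tested. The study followed cells of H9, an established human embryonic stem cell line of WT genotype, through in vitro pancreatic differentiation. The stages were undifferentiated hESCs, definitive endoderm (DE), primitive gut tube (PGT), pancreatic progenitors (PP), a stage labelled PH that the labels do not spell out, and organoids with β cells derived from the stem cells (SC-β). RNA-seq was made on 2 replicates per stage, 12 of the 148 samples of the series, and all stages came from this single line. The deposited table gives a single mean per stage, so every value below is the authors' mean of 2 replicates, without an error, and no test between stages could be run. The table holds no read counts, so the depth behind each value is unknown here beyond a minimum number of reads per replicate that the study states.

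Mitochondria keep a small circular genome whose mRNAs all encode subunits of oxidative phosphorylation (OXPHOS), the chain of complexes that makes ATP from nutrients. Both strands are transcribed into long precursors, and the tRNAs, which lie between most of the other genes, are cut out to release the mRNAs and rRNAs. All remaining subunits of the complexes, the proteins of the mitochondrial ribosome and the enzymes that copy, transcribe and process this genome are encoded in the nucleus. In pancreatic β cells, mitochondrial ATP links glucose metabolism to insulin secretion.

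Facts of the libraries touch all of these values. Per the labels, total RNA was depleted of ribosomal RNA and then made into a stranded mRNA library; whether the depletion covers the mitochondrial rRNAs is not stated. Structural RNAs such as RN7SK and RN7SL1 took from 31.8% of the TPM total in DE to 50.9% in PH, and all other genes share the remainder. A rescaling by the median ratio over the 13938 names at 1 TPM or more in every stage moved log2 ratios to hESCs down by 0.48 in DE, 0.34 in PGT, 0.25 in PP, 0.03 in PH and 0.52 in SC-β. Ratios between genes within a stage are free of it. As sums, markers were highest in the stages they name for hESCs (5 pluripotency genes, 2617 TPM), DE (5 genes, 2016 TPM) and SC-β (5 endocrine genes, 4118 TPM). Most of the SC-β sum was the glucagon gene GCG (2793 TPM), with the insulin gene INS at 298 TPM. Some members of these lists were higher in another stage. LIN28A was at 724 TPM in hESCs and 772 in DE. FOXA2 was at 39.6 TPM in DE and 48.7 in PGT, and ISL1 at 18.9 TPM in SC-β and 58.3 in PGT. The 3 hepatic markers summed to 277 TPM in PGT, beside 185 TPM for the 4 gut tube markers, and to 110 TPM in SC-β. Nearly all of the hepatic sum in PGT was APOA1 (252 TPM), with AFP at 22.2 TPM and ALB at 2.99 TPM. AFP and ALB were higher in SC-β, at 34.3 and 39.3 TPM. In PP, PDX1, the defining factor of pancreatic progenitors, was at 3.17 TPM. In PH it was at 0.0173 TPM, and NKX6-1 was also below its PP level there, at 0.256 TPM. The 5 progenitor markers together summed to 35.7 TPM in PH and 30.6 TPM in PP. Most of both sums was SOX9, at 27.2 and 23.7 TPM. PTF1A was at 7.61 and 1.02 TPM, and NEUROG3 at 0.602 and 0.556 TPM. The 5 definitive endoderm markers summed to 109 TPM in PH, nearly all of it CXCR4 (106 TPM), with SOX17 listed at 0. The 4 neural markers summed to 322 TPM in PH and to between 4.63 and 46.2 TPM in the other stages. The 4 mesenchymal markers summed to 421 TPM in PH, 968 TPM in SC-β and at most 43.97 TPM elsewhere. Most of this was COL3A1, at 349 TPM in PH and 771 TPM in SC-β. Of the 4, ACTA2 alone was lower in PH (3.57 TPM) than in PP (15.2 TPM). In such bulk samples, fewer cells of a type and less RNA per cell cannot be told apart.

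The mitochondrial genes together held 2.23% of the TPM total in hESCs and 2.54%, 1.22%, 1.54%, 0.607% and 2.23% in DE, PGT, PP, PH and SC-β. PH stood lowest and DE highest. PGT was next to PH. With the structural RNAs taken out of the total, the shares became 3.65%, 3.72%, 1.93%, 2.66%, 1.24% and 3.38% in the same order, and PH and DE kept their places at the bottom and the top.

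**Figure D1:**
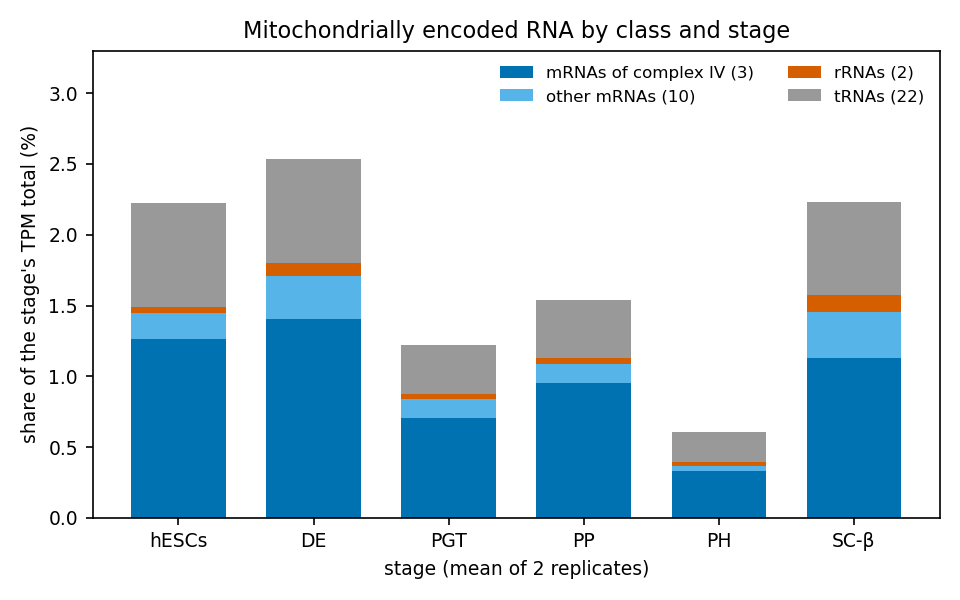
Stacked bars of the share of each stage's TPM total (percent, axis from 0) held by the 3 mRNAs of complex IV, the other 10 mRNAs, the 2 rRNAs and the 22 tRNAs. Bars are means of 2 replicates without an error: their full height runs from 0.607% in PH to 2.54% in DE, and complex IV mRNAs form the tallest segment in every stage. Under the median-ratio rescaling the mRNA sums of DE and SC-β fall below that of hESCs.

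By class, mRNAs held most of this RNA. They summed to 14480 TPM in hESCs and 17115, 8394, 10883, 3681 and 14534 in DE, PGT, PP, PH and SC-β, between 60.6% (PH) and 70.7% (PP) of all mitochondrial TPM. The tRNAs summed to 7352, 7349, 3460, 4104, 2098 and 6537 TPM in the same order, or 26.7% (PP) to 34.6% (PH). How the short length of tRNA genes bears on these class shares was not tested. The rRNAs, which the depletion step may have lowered to an extent that was not tested, summed to 438, 889, 350, 409, 295 and 1235 TPM, between 1.97% (hESCs) and 5.54% (SC-β). The ratio of mRNA to rRNA, in which a common scale cancels, was 33.0 in hESCs and 19.2, 24.02, 26.6, 12.5 and 11.8 in DE, PGT, PP, PH and SC-β. PH and SC-β had the lowest ratios. In PH the mRNAs were 3.93-fold below hESCs and the rRNAs 1.49-fold, while in SC-β the mRNA sum was near that of hESCs and the rRNA sum had a log2 ratio of 1.49. After rescaling the SC-β ratios were −0.52 for mRNAs and 0.97 for rRNAs. In PH the neural and mesenchymal markers were high as well, and so were the mesenchymal markers in SC-β. Their part in these ratios was not tested.

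Among mRNAs, the 3 core subunits of complex IV (cytochrome c oxidase), which passes electrons to oxygen, were the 3 most abundant in every stage. MT-CO3 was at 6729 TPM in hESCs and 6598, 3579, 5239, 1619 and 5233 in DE, PGT, PP, PH and SC-β. It ranked between 7th and 18th of all 49085 names. MT-CO1 was at 3343, 4094, 1885, 2465, 1186 and 3704 TPM in that order. MT-CO2 was at 2568, 3360, 1607, 1820, 526 and 2339 TPM. In PH all 3 had their lowest value. Together they made up 87.3% of mitochondrial mRNA in hESCs and 82.1%, 84.2%, 87.5%, 90.5% and 77.6% in DE, PGT, PP, PH and SC-β.

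The 7 mRNAs of complex I (NADH dehydrogenase), the entry point for electrons from NADH, were led by MT-ND3, with 529 TPM in hESCs and 902, 413, 439, 125 and 735 in DE, PGT, PP, PH and SC-β. MT-ND3 was the fourth and MT-CYB the fifth mRNA by level in every stage. MT-ND4L was at 208.5, 304, 132, 129.9, 13.6 and 416 TPM, and MT-ND4, which shares its mRNA, at 188, 332, 131, 129.7, 42.4 and 421 TPM. These neighbours stood close to each other in 5 stages and apart in PH, where MT-ND4L was the lower. MT-ND1 was at 156, 223, 102, 89.9, 20.9 and 263 TPM. MT-ND5 was at 111, 236, 90.5, 88.9, 27.4 and 262 TPM. MT-ND2 was at 59.3, 98.0, 55.1, 51.3, 5.56 and 119 TPM. All of these core subunits were highest in SC-β except MT-ND3, which was highest in DE, under both scalings.

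MT-ND6 is the only mRNA encoded on the other strand, the reverse strand of the reference sequence. It was at 45.5 TPM in hESCs and 100.4, 34.3, 39.5, 11.4 and 104 in DE, PGT, PP, PH and SC-β, the lowest or the next to lowest mRNA in every stage. The ratio of MT-CO3 to MT-ND6 was 148 in hESCs and 65.7, 104, 133, 143 and 50.3 in DE, PGT, PP, PH and SC-β. Whether the counting used the strand of the reads is not stated, and without it reads of MT-ND6 and of RNA from the opposite strand cannot be told apart.

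MT-CYB, the cytochrome b of complex III, which hands electrons on to cytochrome c, was at 321 TPM in hESCs and 441, 180, 214, 61.9 and 557 in DE, PGT, PP, PH and SC-β. The complex V (ATP synthase) subunits MT-ATP8 and MT-ATP6 are encoded on a common mRNA and overlap in the genome. MT-ATP8 was at 146, 293, 128, 112, 23.1 and 228 TPM. MT-ATP6 was at 74.8, 132, 58.3, 63.4, 17.9 and 152 TPM. MT-ATP8 was above MT-ATP6 in all 6 stages, with a ratio of 1.95, 2.22, 2.19, 1.77, 1.30 and 1.5. The genes share 46 nucleotides at chrM:8527-8572 (hg38, forward strand), printed here because reads inside them could be counted to either gene, with the start codon of MT-ATP6 and the stop codon of MT-ATP8 in capitals.
MT-ATP8/MT-ATP6 overlap: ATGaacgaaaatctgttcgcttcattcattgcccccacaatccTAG
MT-ND4L and MT-ND4 overlap by 7 nucleotides in the same manner, at chrM:10760-10766.

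**Figure D2:**
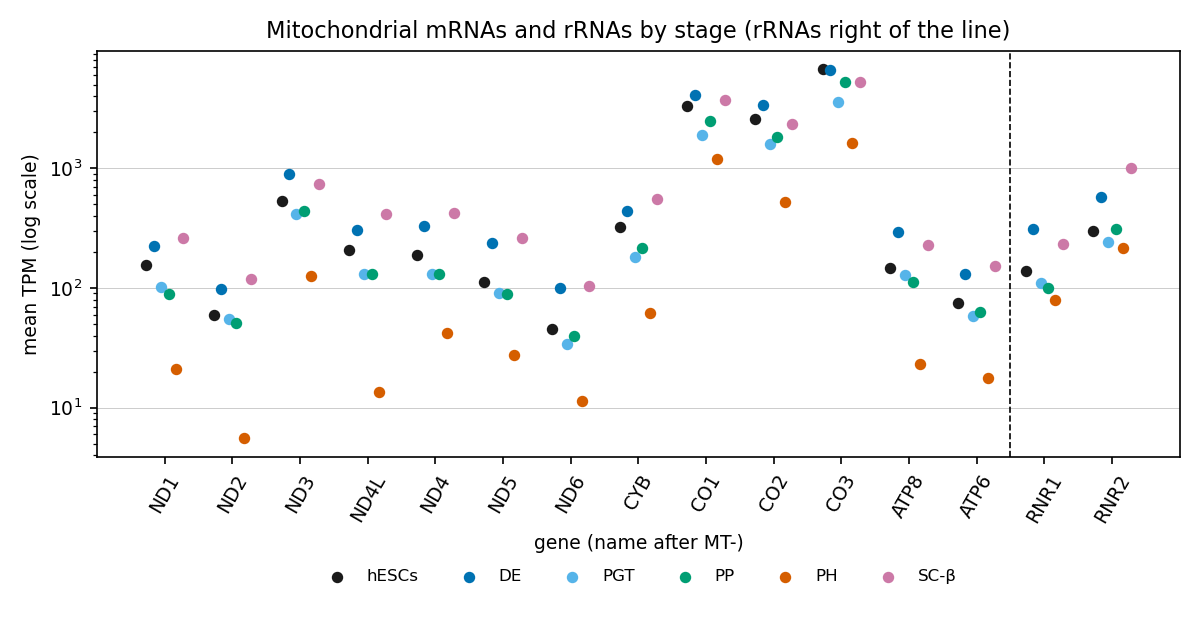
Mean TPM (log axis) of the 13 mRNAs and, right of the dashed line, the 2 rRNAs, with a point for each of the 6 stages (mean of 2 replicates, no error). MT-CO1, MT-CO2 and MT-CO3 lie above the other 12 genes in every stage, from 526 TPM (MT-CO2 in PH) upward. In these values as deposited, the PH point is the lowest for each of the 15 genes.

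The mixture of mRNAs shifted between stages. Complex I mRNAs were 8.97% of mitochondrial mRNA in hESCs and 12.8%, 11.4%, 8.90%, 6.69% and 16.0% in DE, PGT, PP, PH and SC-β. The ratio of complex IV to complex I TPM was 9.74, 6.402, 7.38, 9.83, 13.5 and 4.86 in that order, so PH and SC-β were at opposite ends. In SC-β each of the 10 mRNAs outside complex IV had a larger log2 ratio to hESCs (0.47 for MT-ND3 to 1.23 for MT-ND5) than each of the 3 of complex IV (−0.36 to 0.15). The medians of the groups differed by 1.13. In DE, too, all 10 were above the 3, with ratios of 0.46 to 1.12 against −0.03 to 0.39 (all 3 below 0 after rescaling), and in PGT 9 of 10 were. In PP 5 were above and 4 below. In PH none was above and 5 were below. These orders within a stage do not depend on the scaling, whereas the signs do: after rescaling, MT-ND5 in SC-β was at 0.71, MT-ND3 at −0.05 and MT-CO1 at −0.37.

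The rRNAs MT-RNR1, of the small, and MT-RNR2, of the large subunit of the mitochondrial ribosome, did not keep a fixed ratio. MT-RNR1 was at 138 TPM in hESCs and 311, 109, 101, 80.0 and 235 in DE, PGT, PP, PH and SC-β. MT-RNR2 was at 299.8, 578, 240, 308, 215 and 999.9 TPM in that order. The ratio of MT-RNR2 to MT-RNR1 was 2.17, 1.86, 2.21, 3.06, 2.68 and 4.25, lowest in DE and highest in SC-β. MT-RNR2 in SC-β had the largest log2 ratio to hESCs of all 37 genes there, 1.73, or 1.21 after rescaling.

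The tRNA signal was concentrated in a few genes of a single strand. Of the 22, 8 are annotated on the reverse strand and these took 94.1% of tRNA TPM in hESCs and 91.8%, 91.7%, 93.5%, 97.3% and 93.6% in DE, PGT, PP, PH and SC-β. Within them, MT-TA, MT-TN, MT-TC and MT-TY, neighbours at chrM:5587-5891 (hg38), took 75.4% (PP) to 86.2% (PH) of tRNA TPM. With MT-TP, for proline, they are the 5 tRNAs highest by mean over the stages. Their DNA sequences in the hg38 reference on the strand of the tRNA, 5′ to 3′, with the anticodon in capitals, are shown with those of MT-TQ and MT-TS1, reverse-strand tRNAs at the other end of the range.
MT-TC: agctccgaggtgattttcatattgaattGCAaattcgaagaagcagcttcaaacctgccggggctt
MT-TY: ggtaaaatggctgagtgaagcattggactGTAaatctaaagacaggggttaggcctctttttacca
MT-TN: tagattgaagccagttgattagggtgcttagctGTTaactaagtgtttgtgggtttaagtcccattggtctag
MT-TP: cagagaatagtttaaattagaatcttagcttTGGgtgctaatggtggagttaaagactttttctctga
MT-TA: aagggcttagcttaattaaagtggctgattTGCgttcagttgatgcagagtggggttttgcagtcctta
MT-TQ: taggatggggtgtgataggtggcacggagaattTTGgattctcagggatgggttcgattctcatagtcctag
MT-TS1: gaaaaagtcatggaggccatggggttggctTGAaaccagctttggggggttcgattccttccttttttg
The tRNA genes lie on the reverse strand at chrM:5761-5826 (MT-TC), chrM:5826-5891 (MT-TY), chrM:5657-5729 (MT-TN), chrM:15956-16023 (MT-TP), chrM:5587-5655 (MT-TA), chrM:4329-4400 (MT-TQ) and chrM:7446-7514 (MT-TS1). MT-TC and MT-TY share 1 base, and MT-TQ shares 3 bases with MT-TI on the opposite strand.

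MT-TC, for cysteine, was at 2711 TPM in hESCs and 2690, 1193, 1375, 844 and 2385 in DE, PGT, PP, PH and SC-β. MT-TY, for tyrosine, was at 2172, 2086, 966, 1074, 638 and 1863 TPM. MT-TN, for asparagine, was at 961, 1004, 447, 506, 259 and 812 TPM. The 3 followed each other, with hESCs, DE and SC-β high and PH lowest. MT-TP was at 733, 597, 405, 688, 217 and 643 TPM, and differed from them in PP, where it stood near its hESC value. MT-TA, for alanine, was at 271, 254, 114, 138, 67.7 and 194 TPM. MT-TE, for glutamate, had the largest log2 ratio of SC-β to hESCs among tRNAs (1.70, rescaled 1.18), with 66.0, 111, 43.0, 55.4, 15.1 and 216 TPM.

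The high values were not shared by all reverse-strand tRNAs. MT-TS1, for serine, was at 2.06, 2.17, 1.74, 1.40, 0.147 and 5.90 TPM. MT-TQ, for glutamine, was at 2.63, 2.49, 0.639, 0.626, 0 and 0.374 TPM, the smallest SC-β to hESCs ratio among the tRNAs (−1.40, rescaled −1.67). The 14 forward-strand tRNAs were led by MT-TT, for threonine, at 176, 111, 64.9, 66.3, 14.6 and 103 TPM. The remaining 13 were at most 94.2 TPM in any stage, the value of MT-TR in DE. In the step from hESCs to DE the strands differed, with a median log2 ratio of 0.71 over the 14 forward-strand and −0.03 over the 8 reverse-strand tRNAs. In PGT the medians were −0.30 and −1.13, in PP −0.42 and −0.95, in PH −2.05 and −1.81, and in SC-β 0.11 and −0.20. After rescaling the medians were 0.28 and −0.46 in DE and −0.37 and −0.73 in SC-β, so that the forward-strand median of SC-β turned, and the forward-strand median stayed the higher in both. The tRNA genes are 59 to 75 nucleotides long, little more than the 50 bases of each read. How their length bears on the TPM, and what the strand setting of the counting was, was not tested.

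**Figure D3:**
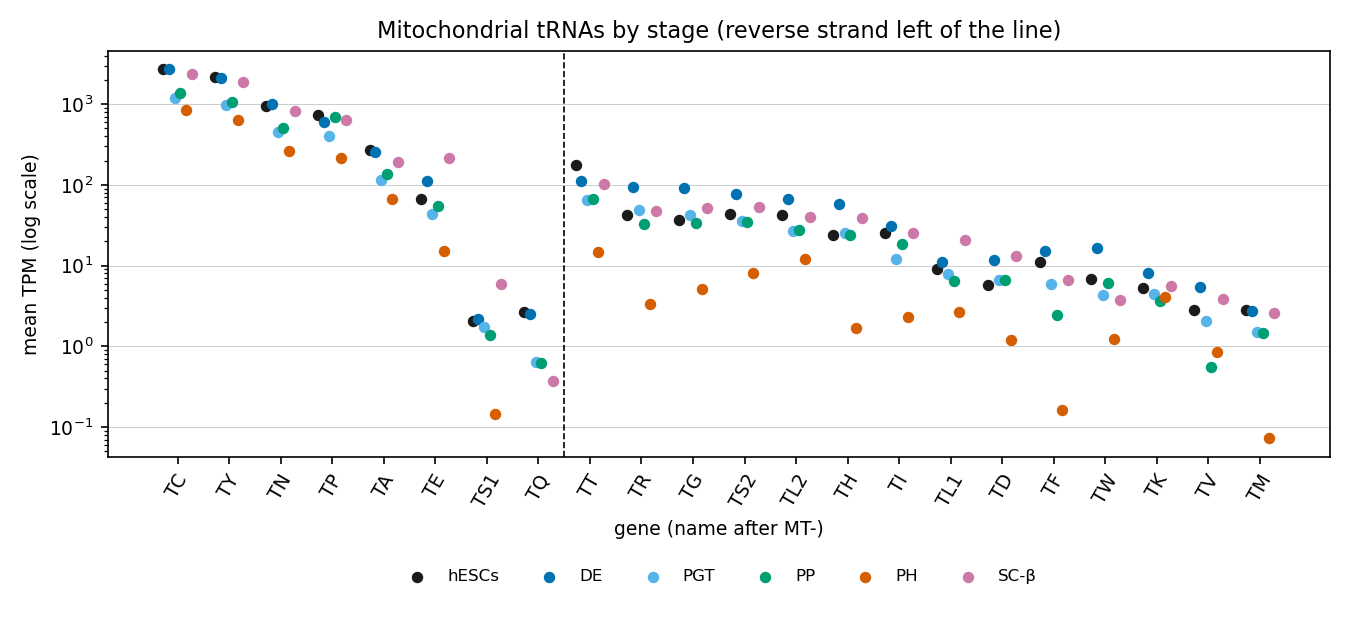
Mean TPM (log axis) of the 22 tRNAs in 6 stages (mean of 2 replicates, no error), ordered by mean level within the reverse strand (left of the dashed line) and the forward strand. MT-TC, MT-TY and MT-TN reach 259 TPM or more in every stage, MT-TQ and MT-TS1 stay at or below 5.90 TPM, and MT-TQ in PH, listed at 0, has no point.

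As deposited, PH had the lowest level of 35 of the 37 genes, among them all 13 mRNAs and both rRNAs. The exceptions were MT-TV and MT-TK, lowest in PP. The share of all names that were lowest in PH was not computed. After rescaling, MT-RNR2 was lower in PGT (log2 ratio to hESCs −0.65) than in PH (−0.51). Against hESCs, 34 of 37 were at least 2-fold lower in PH and none was higher, beside 8.35% of all names lower by that much and 12.1% higher. Among names at 1 TPM or more in either stage, 18.9% were lower and 27.3% higher. After rescaling the count was 34 again, beside 9.01% of all names. All 13 mRNAs and 21 tRNAs were among them, including MT-TQ, listed at 0. The falls were uneven. MT-ND4L had a log2 ratio of −3.84, MT-TT of −3.50, MT-TF of −3.36 and MT-ND2 of −3.20, while MT-TK was at −0.33, MT-RNR2 at −0.48 and MT-RNR1 at −0.78. Among mRNAs, MT-CO1 was lower by the least, with −1.49. MT-ND4L ranked 436th of all names in hESCs and 7273rd in PH. In the same column the neural and mesenchymal markers described above were high and the progenitor markers summed to 35.7 TPM, with PDX1 at 0.0173 TPM, and their part in the mitochondrial values was not tested.

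**Figure D4:**
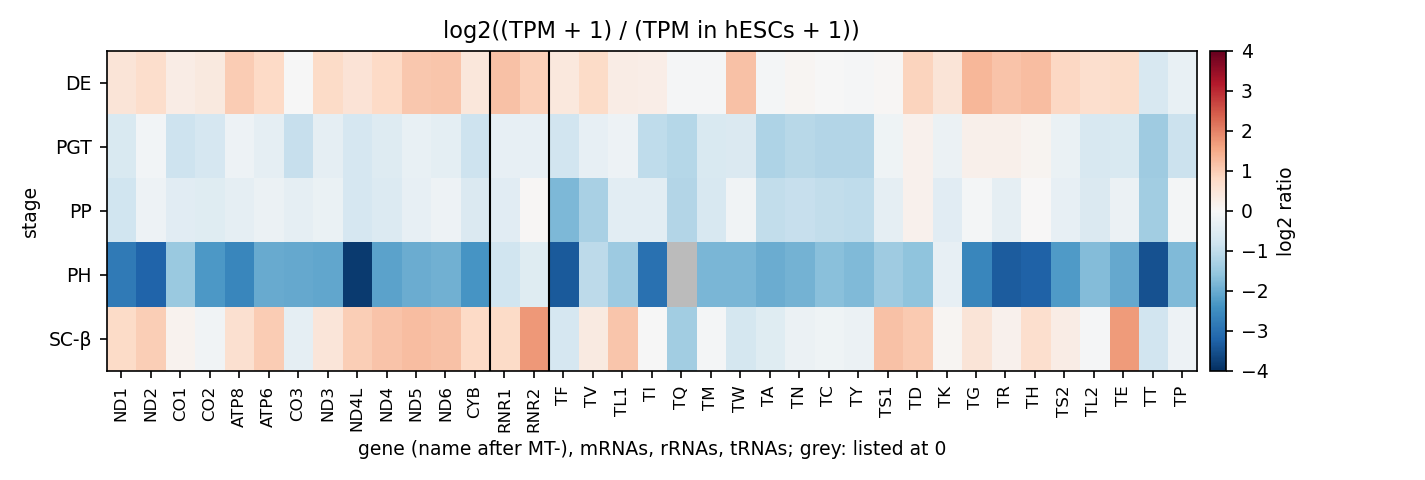
Log2 ratio to hESCs of each of the 37 genes (columns: mRNAs, rRNAs and tRNAs, in map order within each class) in DE, PGT, PP, PH and SC-β (rows), from means of 2 replicates with 1 TPM added. In PH 34 genes are at least 2-fold lower, both before and after rescaling; DE and SC-β hold the higher values, of which 8 and 9 reach 2-fold, and 0 and 2 after rescaling. MT-TQ in PH, listed at 0, is grey.

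In DE, 8 of 37 genes were at least 2-fold above hESCs and 0 below, beside 12.9% of all names above and 2.55% below, or 28.2% and 5.55% of names at 1 TPM or more in either stage. The 8 were MT-ATP8, MT-ND5, MT-ND6, MT-RNR1, MT-TG, MT-TH, MT-TR and MT-TW. After rescaling none was above and MT-TT was below, beside 7.32% and 4.82% of all names, and the log2 ratio of the summed mRNAs turned from 0.24 to −0.24. The share of mitochondrial genes above hESCs was no higher than that of the other names at 1 TPM or more, while the order of the mRNAs within DE, with complex IV at the bottom, held under either scaling.

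In PGT no gene was 2-fold above hESCs and 7 were below, all of them tRNAs, beside 10.1% and 4.34% of all names, or 23.4% and 10% of those at 1 TPM or more in either stage. They included MT-TC, MT-TY, MT-TN, MT-TA and MT-TT. After rescaling 13 were below, 4 of them mRNAs and 9 tRNAs, beside 6.37% of all names. The mRNA sum had a log2 ratio of −0.79, or −1.12 after rescaling, and each of the 13 mRNAs was below its hESC value under both scalings. Set against DE, the stage before it, 27 genes were at least 2-fold lower in PGT, among them 11 mRNAs, both rRNAs and 14 tRNAs, beside 4.92% of all names and 10.6% of those at 1 TPM or more. After rescaling 16 were, 7 mRNAs, 2 rRNAs and 7 tRNAs. The 37 values as deposited ranged from −1.73 (MT-TW) to −0.21 (MT-TS1), all in the same direction, with a median of −1.12 beside −0.03 over all names. For comparisons without hESCs, here and below, the shares of all names were as deposited. Rescaled shares were not computed for them, so the rescaled counts stand without such a share.

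In PP no gene was above and 5 tRNAs were below hESCs by 2-fold, beside 7.98% and 4.06% of all names and 18.9% and 9.63% of those at 1 TPM or more. After rescaling 9 genes were below, 1 of them an mRNA, beside 5.69% of all names. The mRNA sum was at −0.41 (rescaled −0.66). Against PGT, MT-TF alone passed 2-fold, downward, where 3.25% of all names and 7.46% of those at 1 TPM or more did. After rescaling none did. The 3 complex IV mRNAs were higher in PP than in PGT, by 0.18 to 0.55 on the log2 scale, and complex I mRNAs had a median of −0.02, which turned to 0.07 after rescaling. MT-TP had the largest ratio of that step, 0.76. From PP to PH, 29 genes were at least 2-fold lower, among them all 13 mRNAs, neither rRNA and 16 tRNAs, beside 5.73% of all names and 12.8% of those at 1 TPM or more. After rescaling 25 were.

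In SC-β, 9 genes were at least 2-fold above hESCs and MT-TQ below, beside 22.2% of all names above and 3.7% below, or 42.4% and 7.08% of names at 1 TPM or more in either stage. The share of mitochondrial genes above hESCs was below the share of those expressed names. The 9 were MT-ND4, MT-ND5, MT-ND6, MT-ATP6, MT-RNR2, MT-TL1, MT-TS1, MT-TD and MT-TE. After rescaling, MT-RNR2 and MT-TE alone remained above, with 5 tRNAs below, beside 14.9% and 6.76% of all names. The mRNA sum had a log2 ratio of 0.01 as deposited, −0.11 without the structural RNAs and −0.52 after rescaling. Against PP, 16 genes were at least 2-fold higher in SC-β, among them 9 mRNAs and both rRNAs, beside 10.6% of all names and 20.7% of those at 1 TPM or more. After rescaling 11 were, 6 of them mRNAs and 1 an rRNA. MT-CO3 was at 5239 TPM in PP and 5233 in SC-β. Against PH, 35 genes were at least 2-fold higher (34 after rescaling), beside 14.7% of all names and 28.1% of those at 1 TPM or more, with the largest ratio for MT-ND4L, 4.84. These comparisons share stages and are not independent of each other. The mesenchymal markers had their highest sum in SC-β (968 TPM), and their part in these values was not tested.

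Levels of the 13 mRNAs were set against those of the 79 nuclear genes found of 80 listed for structural subunits of the same complexes. The nuclear subunits summed to 9512 TPM in hESCs and 6964, 6301, 6129, 4135 and 5657 in DE, PGT, PP, PH and SC-β. Between hESCs and SC-β the nuclear sum was lower while the mitochondrial sum was near level as deposited. The ratio of mitochondrial to nuclear mRNA, free of scaling, was 1.52 in hESCs and 2.46, 1.33, 1.78, 0.890 and 2.57 in DE, PGT, PP, PH and SC-β. It was below 1 in PH alone. On the log2 scale it ran from −0.17 in PH to 1.36 in SC-β, and the ratio of the medians from −0.71 to 2.92.

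**Figure D5:**
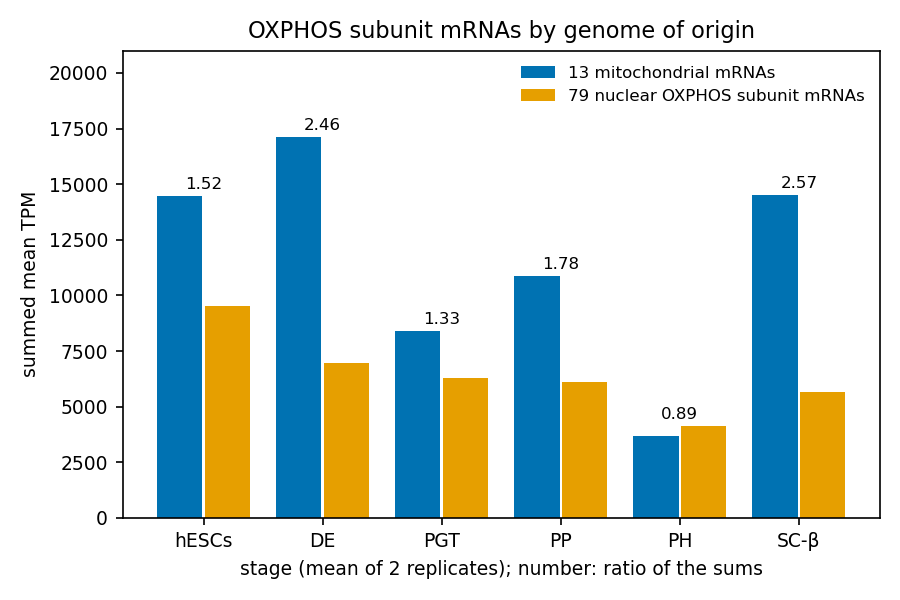
Summed mean TPM (axis from 0) of the 13 mitochondrial mRNAs and of 79 nuclear mRNAs for subunits of the same complexes in each stage (mean of 2 replicates, no error), with the ratio of the sums above each pair. The ratio is highest in SC-β (2.57) and DE (2.46) and is below 1 in PH (0.890).

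No nuclear subunit was at least 2-fold above hESCs in any stage, under either scaling. Those at least 2-fold below numbered 8 of 79 in DE, 9 in PGT, 6 in PP, 38 in PH and 12 in SC-β, and 27, 29, 15, 42 and 44 after rescaling. Of all names, 2.55%, 4.34%, 4.06%, 8.35% and 3.7% were below by that much as deposited, and 4.82%, 6.37%, 5.69%, 9.01% and 6.76% after rescaling. The shares of all names above by that much were 12.9%, 10.1%, 7.98%, 12.1% and 22.2% as deposited. After rescaling they were 7.32%, 7.1%, 6.33%, 12.9% and 14.9%. UQCRH, a small subunit of complex III, was at 774 TPM in hESCs, 112 in PH and 199 in SC-β. NDUFAB1, the acyl carrier protein of complex I, was at 175, 52.2 and 55.96 TPM. ATP5G2, of the membrane ring of ATP synthase, was at the other end, with 65.8 TPM in hESCs and 113 in SC-β. The 77 mitochondrial ribosomal proteins had 38 members at least 2-fold below hESCs in PH and 10 in SC-β, with medians of −0.93 and −0.57 beside 0 and 0.23 over all names. After rescaling these counts were 38 and 43.

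The nuclear genes that act on mitochondrial DNA and RNA were read against the same shares of all names. Of 9 genes for transcription of the mitochondrial genome, 2 were at least 2-fold above hESCs in SC-β, MTERF4 (7.77 to 38.3 TPM) and MTERF2 (4.71 to 13.8 TPM), a share no larger than the 22.2% of all names. After rescaling MTERF4 alone was above and 2 were below, beside 14.9% and 6.76% of all names. Both MTERF genes belong to the mTERF family of mitochondrial nucleic acid-binding proteins. In PH 2 of the 9 transcription genes were above and 2 below, beside 12.1% and 8.35% of all names. Those below were TFAM, which packages and activates mitochondrial DNA (41.4 TPM in hESCs, 14.8 in PH), and TFB2M, the factor that opens the promoters (16.4 and 7.19 TPM). Of 19 genes for processing and stability of mitochondrial RNA, 7 were at least 2-fold lower in PH and 3 in SC-β (8 and 7 after rescaling), beside 8.35% and 3.7% of all names (9.01% and 6.76%), and none was higher in either. SLIRP, which with LRPPRC protects mitochondrial mRNAs, was at 261 TPM in hESCs and 111, 101, 87.0, 42.7 and 57.4 in DE, PGT, PP, PH and SC-β. KIAA0391, the older symbol of the nuclease that cuts the 5′ ends of mitochondrial tRNAs, was at 38.03, 34.7, 21.99, 23.5, 15.2 and 15.7 TPM.

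Of the 19 mitochondrial aminoacyl-tRNA synthetases, which charge the tRNAs, 8 were at least 2-fold lower in PH and 3 in SC-β (9 and 8 after rescaling), beside 8.35% and 3.7% of all names (9.01% and 6.76%). As deposited, VARS2, for valine, was alone in being 2-fold higher, and was so in every stage, from 8.32 TPM in hESCs to 34.5 in SC-β. Of all names, 7.98% (PP) to 22.2% (SC-β) were higher by that much. After rescaling VARS2 fell short of 2-fold in DE (log2 ratio 0.87). GARS, which also serves the cytosol, was at 312 TPM in hESCs and 111 in SC-β. Of 11 tRNA modification enzymes, 1 was lower in PH, where 8.35% of all names were, and 1 higher in SC-β, where 22.2% were. The latter was NSUN3 (5.63 and 13.2 TPM), which methylates the mitochondrial methionine tRNA and did not reach 2-fold after rescaling. Among 12 genes for replication and upkeep of mitochondrial DNA, 6 were at least 2-fold lower in PH and 1 in SC-β (7 and 5 after rescaling), beside the same 8.35% and 3.7% of all names (9.01% and 6.76%). RRM2B, a subunit of the enzyme that makes deoxynucleotides, was at 44.3 TPM in hESCs, 5.49 in PH and 14.2 in SC-β, and SSBP1, which coats single-stranded mitochondrial DNA, at 197, 55.3 and 101 TPM. Of 7 regulators of mitochondrial biogenesis, 1 was at least 2-fold above hESCs in SC-β under either scaling, beside 22.2% of all names (14.9% after rescaling). The median of the 7 there was 0.29, or −0.20 after rescaling. In PH 1 was below under either scaling, beside 8.35% (9.01%) of all names. The gene above in SC-β was PPARGC1A, a transcriptional coactivator, with a log2 ratio of 2.31 (1.87 after rescaling). It was at 3.12 TPM in hESCs and 6.69, 3.51, 1.63, 1.22 and 19.5 in DE, PGT, PP, PH and SC-β. Its sequence-specific partner NRF1, at 12.5 TPM in hESCs and 23.4 in SC-β, did not reach 2-fold (log2 ratio 0.86, rescaled 0.37).

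The nuclear genome holds partial copies of mitochondrial DNA, and reads that match both places can be assigned to either. The table lists 125 names of such copies, which summed to 77.6 TPM in hESCs and 151, 64.9, 62.0, 35.6 and 166 in DE, PGT, PP, PH and SC-β, or 0.349% (hESCs) to 0.746% (SC-β) of the sum over the mitochondrial genes. MTATP6P1 was the highest in every stage, with 41.2, 75.8, 33.2, 33.6, 7.81 and 71.3 TPM, and so was of the order of MT-ATP6 itself. Of the 50-base windows of each gene, those found letter for letter on a nuclear chromosome of hg38 were 50.6% in MT-CO1, 46.7% in MT-ATP6, 43.6% in MT-ND2 and MT-RNR1, 30.9% in MT-CO3 and 29.0% in MT-CO2. MT-CYB had 1.65%, and MT-ND3 and MT-ND4L had none. For tRNAs the share was 100% in MT-TQ, MT-TS1, MT-TA, MT-TN, MT-TE, MT-TK and MT-TW. It was 64.7% in MT-TC, 11.8% in MT-TY and 0% in MT-TP. Both very low and very high tRNAs were thus among those with nuclear copies. Over the 13 mRNAs, which share a library, Spearman's rho between level and share of such windows was between −0.07 and 0.06 in the 6 stages. The values of genes with copies are therefore uncertain to an extent that was not tested.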

How the data were processed

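RNA-seq was made by the study on H9 hESCs and 5 stages differentiated from them, with 2 replicates each. Per the labels, reads were aligned to hg38 with HISAT2 (version 2.2.0) and the authors deposited TPM values that StringTie (version 2.1.6) gave, as a mean of the replicates at each stage; the annotation is not given in the sources used here. The table held 50451 entries under 49085 names. For 231 names with several entries the values were summed. With a mean in place of replicates, and TPM in place of counts, no error, interval or test can be given, and the depth behind a value is known only as the minimum per replicate that the study states. Samples of other assays were not analysed here.

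Ratios are log2((TPM + 1) / (TPM in the reference stage + 1)), which understates changes of low genes, and 2-fold was the threshold for a count. A gene listed at 0 gets no fold. Members, nuclear gene lists, markers and alternatives were chosen with earlier results of these data known. All 37 genes could be named; from each nuclear list, at most the 2 highest and 2 lowest by log2 ratio of SC-β to hESCs at 5 TPM or more in either were named. Gene positions came from GENCODE version 44 and sequences from the hg38 mitochondrial chromosome; exact 50-base matches were sought on the nuclear chromosomes. The fold calculation was tested on simulated data. Alternatives were a pseudocount of 0.1, median-ratio rescaling, totals without structural RNAs, a 4-fold threshold, a filter at 1 TPM, the highest entry per name, the preceding stage as reference and a ratio of medians. Python 3.11.15 was used with numpy 2.4.6, pandas 2.3.3, scipy 1.17.1 and matplotlib 3.10.9.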

Additional observations from a re-analysis of the deposited data

How the results depend on the processing

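No paired analysis was possible because the deposited columns are means over the replicates, and for the same reason no replicate could be left out. A ratio among protein-coding names alone was not run, since 29136 of 49085 names matched a gene type. Without structural RNAs in the total, the mitochondrial share was 3.65% in hESCs, 1.93% in PGT, 2.66% in PP, 1.24% in PH and 3.38% in SC-β. The log2 ratio of summed mRNAs to hESCs became −0.24 in DE, −1.12 in PGT and −0.52 in SC-β after rescaling, and −0.11 in SC-β without structural RNAs; against the preceding stage it was −1.03 in PGT and 0.37 in PP. In PH it stayed between −2.00 and −1.56 over all of these. Counts at 2-fold against hESCs moved as follows. After rescaling, DE had 0 mRNAs, 0 rRNAs and 0 tRNAs above (3, 1 and 4 as deposited) and 1 tRNA below (0). PGT had 4 mRNAs below (0), PP had 1 mRNA and 8 tRNAs below (0 and 5), and SC-β had 0 mRNAs and 1 tRNA above (4 and 4) and 5 tRNAs below (1). Without structural RNAs, DE had 0 mRNAs above. At 4-fold, DE and SC-β had 0 mRNAs, rRNAs and tRNAs above, PGT, PP and SC-β had 0 tRNAs below, and PH had 8 tRNAs below (21). Against the preceding stage, 11 mRNAs, 2 rRNAs and 14 tRNAs were below in PGT (0, 0 and 7) and 1 tRNA in PP (5), and 9 mRNAs and 2 rRNAs were above in SC-β (4 and 1) with 0 tRNAs below. Rescaling also lowered the count below DE in PGT from 27 to 16 and the count below PGT in PP from 1 to 0. As a ratio of medians, the log2 ratio of mitochondrial to nuclear OXPHOS mRNAs was 2.27 in DE, 1.29 in PGT and 2.92 in SC-β. The other 204 alternative values of these results stayed within the limits set, which still allowed sizeable shifts. For summed mRNAs in SC-β the log2 ratio was 0.01 to hESCs and 0.42 to the preceding stage. As a ratio of medians, the log2 ratio of mitochondrial to nuclear OXPHOS mRNAs went from 0.61 to 1.18 in hESCs and from −0.17 to −0.71 in PH. Counting error and the spread between replicates cannot be given for any of these results.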
